A study of Mus musculus with 4 samples.

Results

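The aminoacyl-tRNA synthetases of the mouse were followed as 35 genes, which were chosen by gene symbol from the 54532 genes of the deposited table. Of these, 19 encode cytosolic enzymes and 16, named with a final 2, encode mitochondrial ones. The values came from RNA sequencing of 4 libraries labelled as CD4+ T cells from B16 tumours, where B16 is a melanoma line of the mouse that makes pigment. The series asks how the mechanically gated channel Piezo1 acts on the differentiation of Th9 cells, helper T cells named for secreting interleukin 9. One group, WT 1 and WT 2, is labelled with the genotype WT, and the other, Piezo1KO 1 and Piezo1KO 2, with the genotype Piezo1KO. Both groups carry the same treatment label, the tumour microenvironment. Not given in the sources used here were the strain, the age of the mice and the way Piezo1 was deleted. No label states that libraries of 1 group were made from different mice, so p-values here measure only the spread between libraries, which may be technical.

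Each aminoacyl-tRNA synthetase joins 1 kind of amino acid to its tRNAs, which the ribosome then uses to read the codons of that amino acid. The enzymes fall into class I and class II by the fold of their active site, and several cytosolic ones sit together with scaffold proteins in the multi-tRNA synthetase complex. A separate set of nuclear genes encodes the enzymes that are imported into mitochondria and charge the tRNAs made there, while Gars and Kars each encode a cytosolic and a mitochondrial form. Many cytosolic synthetase genes are known targets of ATF4, the transcription factor of the integrated stress response to shortage of amino acids.

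The library labels were checked first. Piezo1 itself had 27.8 FPKM in WT 1, 27.6 in WT 2, 18.7 in Piezo1KO 1 and 7.64 in Piezo1KO 2, the last from 569 reads. Both Piezo1KO libraries lay below both WT libraries, and limma gave a log2 fold change of -1.14 (SE 0.41, adjusted p = 0.166). The defining markers of the labelled cells were near 0, with 1, 3, 35 and 9 reads of Cd4 and 1, 2, 27 and 0 reads of Cd3e in WT 1, WT 2, Piezo1KO 1 and Piezo1KO 2. The 16 T cell markers summed to 2.84 to 3.37 FPKM in WT and 12.4 to 18.5 FPKM in Piezo1KO, and between 0 and 5 of them had no read in a library. In WT 1 those at 0 reads were Cd3g, Trac, Trbc1, Trbc2 and Cd2, in WT 2 Cd247 and Cd5, and in Piezo1KO 2 Cd3e and Cd5. The 16 melanocyte markers summed to 6431 to 6455 FPKM in WT and 7034 to 7045 FPKM in Piezo1KO, with none at 0 reads. Myeloid markers (12 genes) summed to 74.4 to 88.0 FPKM against 414.7 to 795 FPKM, and erythroid markers (7 genes) to 244 to 389 FPKM against 5124 to 8473 FPKM, again with none at 0 reads. The share of assigned reads on genes of the mitochondrial genome was 3.86% in WT 1, 2.99% in WT 2, 20.1% in Piezo1KO 1 and 48.3% in Piezo1KO 2. The part that these shifts have in the synthetase values was not tested, and in such bulk RNA fewer cells of a type and less RNA per cell cannot be told apart.

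The start sites of the synthetase genes are shown first, because the ATF4 targets among them are known for a C/EBP-ATF motif near the start. RefSeq promoter windows of GRCm38.p6, from 250 bases upstream to 50 bases downstream of a start, were found for 26 of the 35 genes, 12 cytosolic and 14 mitochondrial. They were searched on both strands for the 8 letters TGATGNAA, where N is any base. Of the 12 cytosolic genes, 5 (41.7%) had a match, namely Aars, Gars, Iars, Tars and Yars. None of the 14 mitochondrial genes had one, and 4.51% of all 27025 genes with a window did (3.97% of 32851 windows). The matches of Iars, Tars and Yars are printed with the 8 letters in capitals, 5′ to 3′ on the strand of the gene.
Iars, chr13:49682126-49682155, forward strand: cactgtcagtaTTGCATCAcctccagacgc
Tars, chr15:11399655-11399684, reverse strand: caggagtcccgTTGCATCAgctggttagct
Yars, chr4:129189895-129189924, forward strand: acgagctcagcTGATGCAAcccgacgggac
The 250 bases upstream of the start follow for Gars, the member with the highest FPKM, whose window also held a match. Those of Sars and Lars2 are given as the members with the highest and the lowest log2 fold change on the deposited scale, and their windows held no match.
Gars, chr6:55037751-55038000, forward strand: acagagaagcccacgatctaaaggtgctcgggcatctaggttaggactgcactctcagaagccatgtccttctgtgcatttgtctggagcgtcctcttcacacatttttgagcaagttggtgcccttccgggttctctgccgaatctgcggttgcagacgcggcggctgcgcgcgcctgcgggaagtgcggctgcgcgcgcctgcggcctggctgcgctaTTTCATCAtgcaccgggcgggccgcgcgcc
Sars, chr3:108445260-108445509, reverse strand: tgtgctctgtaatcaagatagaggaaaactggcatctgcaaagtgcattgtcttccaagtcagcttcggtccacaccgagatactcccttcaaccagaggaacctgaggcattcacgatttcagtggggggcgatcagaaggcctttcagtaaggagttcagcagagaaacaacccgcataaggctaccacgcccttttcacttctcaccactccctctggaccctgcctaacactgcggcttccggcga
Lars2, chr9:123366677-123366926, forward strand: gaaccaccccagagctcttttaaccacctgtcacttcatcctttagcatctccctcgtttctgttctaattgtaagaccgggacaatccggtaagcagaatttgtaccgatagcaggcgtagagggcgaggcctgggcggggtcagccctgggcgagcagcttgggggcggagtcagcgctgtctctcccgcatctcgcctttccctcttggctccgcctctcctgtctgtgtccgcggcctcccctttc
A match describes letters in the window, not binding. The 5 cytosolic genes with a match had a median log2 fold change of 0.41 (range -0.05 to 0.53), and the 7 without a match had 0.39 (range 0.01 to 0.90).

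FPKM values scale the reads of a gene to its length and to the library, so levels can be set side by side between genes, within the limits of the gene models. The cytosolic enzymes were the more abundant class in every library. Their summed FPKM was 820.1, 791, 1023 and 1076 in WT 1, WT 2, Piezo1KO 1 and Piezo1KO 2, and that of the mitochondrial enzymes was 88.7, 89.4, 78.1 and 70.2. The ratio of the sums was 9.25, 8.84, 13.1 and 15.3, higher in both Piezo1KO libraries than in both WT libraries. A factor applied to a whole library leaves such a ratio as it is, but quantile normalisation does not. Among 22046 protein-coding genes ranked by FPKM, the median cytosolic enzyme stood at percentile 94.8, 94.9, 95.01 and 94.8 and the median mitochondrial one at 69.2, 69.3, 68.5 and 69.1. These median positions were within 1 percentile of each other across the 4 libraries.

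**Figure D1:**
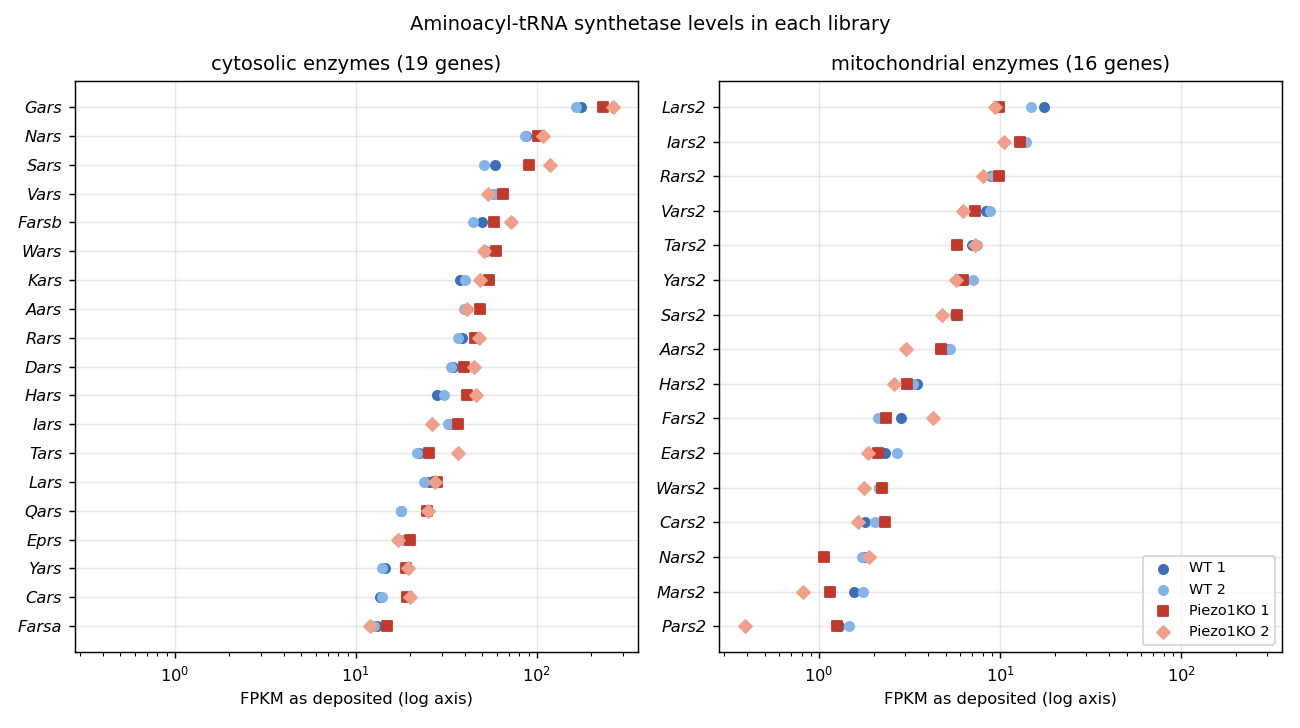
FPKM as deposited (log axis) of the 19 cytosolic (left) and 16 mitochondrial (right) synthetase genes, ordered by mean, with 1 point per library. Gars is the highest cytosolic gene (164 to 262 FPKM) and Farsa the lowest (11.9 to 14.8 FPKM), while the mitochondrial genes reach from Pars2 (0.388 to 1.46 FPKM) to Lars2 (9.37 to 17.4 FPKM).

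Gars, the glycyl-tRNA synthetase of both compartments, was the most abundant member, with 176 FPKM in WT 1, 164 in WT 2, 233 in Piezo1KO 1 and 262 in Piezo1KO 2. At the other end of the cytosolic class stood Farsa, the alpha subunit of the phenylalanyl-tRNA synthetase, with 13.1 FPKM in WT 1, 12.5 in WT 2, 14.8 in Piezo1KO 1 and 11.9 in Piezo1KO 2. Its partner subunit Farsb had 50.1 FPKM in WT 1, 44.1 in WT 2, 58.2 in Piezo1KO 1 and 72.2 in Piezo1KO 2. The ratio of Farsb to Farsa was 3.81, 3.52, 3.94 and 6.05 in WT 1, WT 2, Piezo1KO 1 and Piezo1KO 2, so the subunits of 1 enzyme were listed at different levels. Lars2, for leucine, was the highest and Pars2, for proline, the lowest of the mitochondrial enzymes by mean FPKM.

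The first comparison asked which synthetase transcripts differed between the Piezo1KO and WT libraries. On the deposited scale most cytosolic enzymes had higher values in Piezo1KO and most mitochondrial ones lower values, but none of the 35 passed the test. The test was limma on log2(FPKM + 1), with p-values adjusted by the Benjamini-Hochberg method over the 11085 genes whose FPKM averaged 1 or more. All 35 members met that filter. Of all genes tested, 122 (1.1%) passed at an adjusted p of 0.05, 81 (0.731%) higher and 41 (0.37%) lower in Piezo1KO. At an unadjusted p under 0.05, 6 members were higher, all cytosolic, and 1 was lower, the mitochondrial Lars2, beside 14.9% of all genes higher and 13.7% lower. With limma's voom on reads recovered from the FPKM values, 0 of 35 members passed as well, where 82 genes were called in all. An exact permutation test of 2 libraries against 2 cannot give a two-sided p under 0.333, so no such test is reported.

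Among the cytosolic enzymes, 18 of 19 had a positive log2 fold change, against 49.6% of all genes, and the median was 0.30 against -0.01 for all genes tested. In 14 of the 19, both Piezo1KO libraries lay above both WT libraries, against 33.9% of all genes, and in none did both lie below. Eprs, Farsa, Iars, Vars and Wars were the 5 whose groups overlapped. These directions hold for the deposited scale. Scaled to all assigned reads, 1 of the 19 was positive and the median was -0.49, against 12.6% and -0.67 for all genes tested. After quantile normalisation 8 were positive and the median was -0.05, against 43.9% and -0.07.

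Sars, the seryl-tRNA synthetase, had the largest difference on the deposited scale, with 59.0 FPKM in WT 1, 51.0 in WT 2, 90.9 in Piezo1KO 1 and 117 in Piezo1KO 2. Both Piezo1KO libraries stood well above both WT libraries, the second highest of all. The group levels were 55.0 ± 5.65 over the WT libraries and 104 ± 18.8 over the Piezo1KO libraries (SD, n = 2 each), and the log2 fold change was 0.90 (SE 0.20, 95% interval 0.36 to 1.44, adjusted p = 0.123) in limma. Scaled to all assigned reads, Sars was the 1 member above 0, at 0.10, and after quantile normalisation it was 0.37. The gene lies on the reverse strand at chr3:108424865-108445209 of GRCm38. Hars, for histidine, had 28.2 FPKM in WT 1, 30.5 in WT 2, 41.2 in Piezo1KO 1 and 46.3 in Piezo1KO 2. Its groups did not overlap, and its log2 fold change was 0.56 (SE 0.15, 95% interval 0.16 to 0.95, adjusted p = 0.135) in limma.

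Cars, for cysteine, had 13.6 FPKM in WT 1, 13.9 in WT 2, 19.1 in Piezo1KO 1 and 19.8 in Piezo1KO 2. Within each group its libraries lay close together, and the gap between the groups was wider than either. Its log2 fold change was 0.47 (SE 0.12, 95% interval 0.14 to 0.80, adjusted p = 0.134) in limma. Qars, for glutamine, had 17.7 FPKM in WT 1, 17.7 in WT 2, 24.7 in Piezo1KO 1 and 24.97 in Piezo1KO 2. It showed the same close pairs, with a log2 fold change of 0.47 (SE 0.13, 95% interval 0.13 to 0.80, adjusted p = 0.135) in limma. Yars, for tyrosine, had 14.4 FPKM in WT 1, 14.0 in WT 2, 18.9 in Piezo1KO 1 and 19.4 in Piezo1KO 2, again without overlap, and its log2 fold change was 0.41 (SE 0.12, 95% interval 0.08 to 0.74, adjusted p = 0.146) in limma.

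Gars was spread more widely in Piezo1KO, at 170.3 ± 8.53 over the WT libraries and 247 ± 20.7 over the Piezo1KO libraries (SD, n = 2 each) in FPKM. Its log2 fold change was 0.53 (SE 0.19, 95% interval 0.03 to 1.04, adjusted p = 0.166) in limma. Farsa was the counterexample at the bottom of the class, since Piezo1KO 1 was the highest and Piezo1KO 2 the lowest of its 4 values, and its log2 fold change was 0.05 (adjusted p = 0.843) in limma. Scaled to all assigned reads, the values of Cars, Hars, Qars, Yars and Gars were all negative, from -0.35 (Yars) to -0.23 (Hars). After quantile normalisation the first 4 of these lay between 0.22 (Hars) and 0.33 (Cars), and Gars was at -0.32. On the deposited scale the other cytosolic log2 fold changes were 0.46 for Farsb, 0.44 for Tars, 0.39 for Kars, 0.30 for Dars, 0.30 for Rars, 0.27 for Nars, 0.17 for Lars and 0.15 for Aars. Of these others, Wars, Eprs, Vars and Iars were nearest to 0, at 0.07, 0.01, 0.01 and -0.05. Each of these genes is named by the letter of its amino acid, and Eprs carries the activities for glutamate and proline in 1 protein.

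The cytosolic enzymes were also set out by class and by complex, as a description on the deposited scale. The 10 class II enzymes, Sars, Hars and Gars among them, had a median log2 fold change of 0.42, and in 9 of them the groups were separate with Piezo1KO higher, a pattern that 33.9% of all genes showed. The 8 class I enzymes, with Cars, Qars and Yars, had a median of 0.23, and 5 were separate in that direction. Eprs, with the activities for glutamate and proline in 1 protein, was put in neither class. Its groups overlapped, and its log2 fold change was 0.01. Both classes are small sets, and their counts were not tested. Scaled to all assigned reads, these medians were -0.37 and -0.55, and after quantile normalisation -0.02 and -0.06. Of the 7 synthetases of the complex (Dars, Eprs, Iars, Kars, Lars, Qars and Rars), 5 were separate and higher, with a median of 0.30, which was -0.49 scaled to all assigned reads and -0.06 after quantile normalisation. The 10 known ATF4 targets among the synthetases had 7 separate and higher, 3 overlapping and a median of 0.34, which was -0.44 and -0.18 under those scalings.

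**Figure D2:**
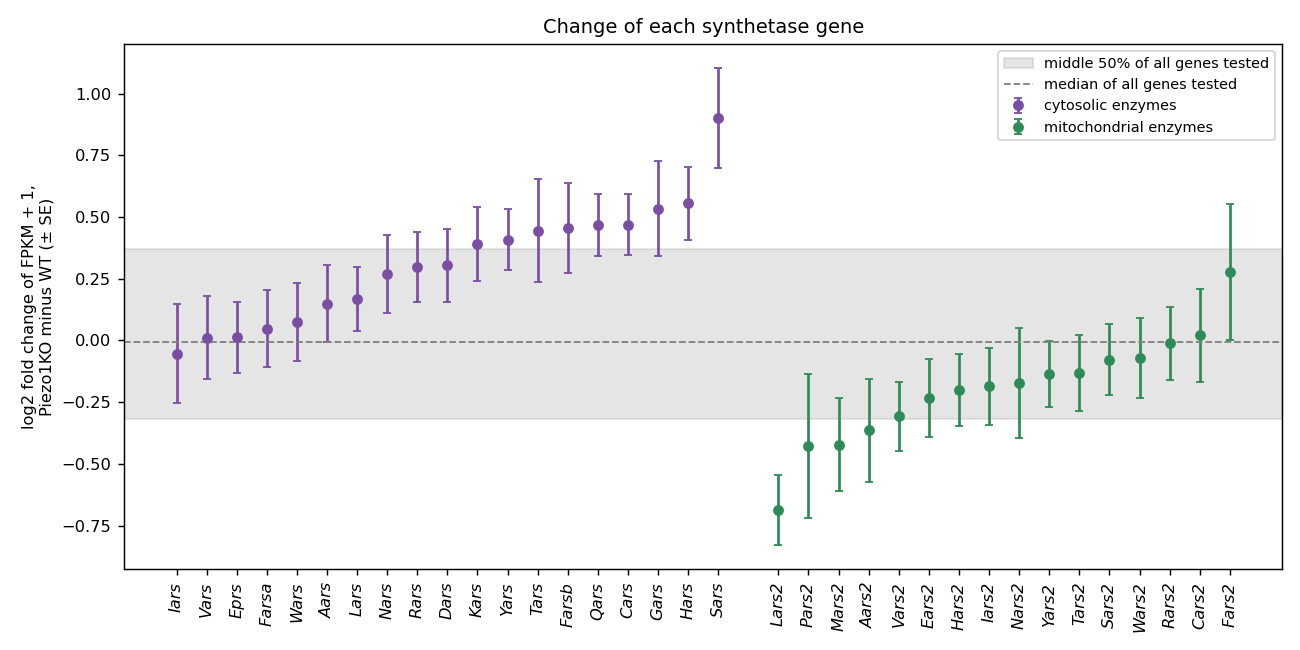
Log2 fold change of FPKM + 1, Piezo1KO minus WT, with its limma standard error, for each synthetase gene, on the deposited scale. The band spans the middle 50% of all 11085 genes tested (-0.32 to 0.37) and the dashed line is their median. Cytosolic genes run from -0.05 (Iars) to 0.90 (Sars) and mitochondrial genes from -0.69 (Lars2) to 0.28 (Fars2). Scaling to all assigned reads leaves 1 of the 35 values, that of Sars, above 0, beside 12.6% of all genes tested.

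For the mitochondrial enzymes, 14 of 16 had a negative log2 fold change, and the median was -0.18 against -0.01 for all genes tested. Both Piezo1KO libraries lay below both WT libraries in 8 of the 16, against 35.6% of all genes, and above them in none. The 8 were Aars2, Ears2, Hars2, Lars2, Mars2, Pars2, Vars2 and Yars2. The median stayed negative under every scaling tried. It was -0.77 when all assigned reads set the scale, against -0.67 for all genes tested. With reads on mitochondrial genes left out of the scale it was -0.36 against -0.20, and after quantile normalisation -0.12 against -0.07.

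Lars2, the mitochondrial leucyl-tRNA synthetase, had 17.4 FPKM in WT 1, 14.9 in WT 2, 9.87 in Piezo1KO 1 and 9.37 in Piezo1KO 2. Both Piezo1KO values were below both WT values and close to each other. Group levels were 16.1 ± 1.83 over the WT libraries and 9.62 ± 0.355 over the Piezo1KO libraries (SD, n = 2 each) in FPKM, with a log2 fold change of -0.69 (SE 0.14, 95% interval -1.06 to -0.31, adjusted p = 0.118) in limma, the smallest adjusted p of all 35 members. Its gene lies on the forward strand at chr9:123366927-123462666 of GRCm38. The log2 fold change was -1.42 (adjusted p = 0.0196 in limma) when all assigned reads set the scale. On that scale 1466 of 11083 genes passed as lower, and the median of all genes tested was -0.67. The value of Lars2 was -0.78 after quantile normalisation and -0.36 with a length trend removed. Lars2 stood at percentile 89.2 of protein-coding genes in WT 1, 87.5 in WT 2, 81.6 in Piezo1KO 1 and 81.2 in Piezo1KO 2. It was 1 of 8 mitochondrial members with a lower percentile in both Piezo1KO libraries, beside 40.8% of 9940 tested protein-coding genes, and none had a higher one in both. Among the cytosolic enzymes 6 had a higher percentile in both Piezo1KO libraries (Cars, Hars, Qars, Sars, Tars and Yars), beside 27.7% of those genes, and 5 a lower one (Dars, Iars, Nars, Vars and Wars).

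Mars2, for methionine, had 1.55 FPKM in WT 1, 1.74 in WT 2, 1.15 in Piezo1KO 1 and 0.815 in Piezo1KO 2, without overlap of the groups. The log2 fold change was -0.42 (SE 0.19, 95% interval -0.92 to 0.08, adjusted p = 0.212) in limma. It was -0.71 with a pseudocount of 0.1 and -0.09 with a length trend removed. Vars2, for valine, had 8.33 FPKM in WT 1, 8.82 in WT 2, 7.30 in Piezo1KO 1 and 6.21 in Piezo1KO 2. Its groups did not overlap either, and its log2 fold change was -0.31 (SE 0.14, 95% interval -0.68 to 0.06, adjusted p = 0.214) in limma. Aars2, for alanine, had 5.06 FPKM in WT 1, 5.29 in WT 2, 4.71 in Piezo1KO 1 and 3.02 in Piezo1KO 2, so that the lower group mean came mostly from Piezo1KO 2. Its log2 fold change was -0.36 (SE 0.21, 95% interval -0.92 to 0.19, adjusted p = 0.285) in limma, and it was -0.11 without Piezo1KO 2 and -0.62 without Piezo1KO 1.

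Pars2 showed how few reads stood behind the lowest members. It had 79, 92, 57 and 9 reads in WT 1, WT 2, Piezo1KO 1 and Piezo1KO 2, or 1.29, 1.46, 1.25 and 0.388 FPKM. The 9 reads have an exact 95% Poisson interval of 4.12 to 17.1 reads, which is 0.177 to 0.737 FPKM and covers counting error only. Its log2 fold change was -0.43 (adjusted p = 0.350) in limma, and it was -0.08 without Piezo1KO 2 and -0.78 without Piezo1KO 1. With a pseudocount of 0.1 it was -0.86, below the -0.74 of Lars2 at that setting. Fars2, for phenylalanine, had the highest value of the class, 0.28, from 2.84, 2.12, 2.34 and 4.27 FPKM, with WT 2 the lowest, Piezo1KO 2 the highest and the groups overlapping. The remaining log2 fold changes were -0.23 for Ears2, -0.20 for Hars2, -0.19 for Iars2, -0.17 for Nars2, -0.14 for Yars2, -0.13 for Tars2, -0.08 for Sars2, -0.07 for Wars2, -0.01 for Rars2 and 0.02 for Cars2. By class, the 9 class I mitochondrial enzymes had a median of -0.19 and the 7 class II enzymes -0.17.

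The second comparison set each cytosolic enzyme beside the mitochondrial enzyme for the same amino acid within a library, which gave 16 pairs. The cytosolic to mitochondrial ratio was higher in both Piezo1KO libraries than in both WT libraries in 13 of the 16 pairs and lower in none. The same count was not made for other pairs of genes, so no share stands beside it. Farsa/Fars2, Farsb/Fars2 and Iars/Iars2 overlapped. The difference in log2 ratio was positive in 15 pairs, with a median of 0.53. No library-wide factor can move these ratios, but quantile normalisation, which changes high and low values by different amounts, left 8 of 16 positive with a median of 0.04, 7 pairs separate and higher, 1 separate and lower and 8 overlapping. Pairs that share Eprs or Fars2 are not independent of each other.

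On the deposited values the serine pair differed most between the groups. Sars/Sars2 was 10.5 in WT 1, 9.05 in WT 2, 15.7 in Piezo1KO 1 and 24.5 in Piezo1KO 2, a difference of 1.01 in mean log2 ratio. Sars2 overlapped between the groups on the deposited scale, with 5.603, 5.64, 5.79 and 4.79 FPKM. Which gene of the pair differed more depended on the scale, since the log2 fold changes of Sars and Sars2 were 0.90 and -0.08 as deposited but 0.10 and -0.74 when all assigned reads set the scale. In the leucine pair Lars had 25.3, 23.9, 28.2 and 27.3 FPKM. The ratio Lars/Lars2 was 1.45 in WT 1, 1.61 in WT 2, 2.85 in Piezo1KO 1 and 2.91 in Piezo1KO 2, and its groups lay apart by 0.92 in mean log2 ratio. After quantile normalisation the leucine pair differed most, by 0.72, and the serine pair by 0.41.

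Hars/Hars2 was 8.16 in WT 1, 9.27 in WT 2, 13.5 in Piezo1KO 1 and 17.9 in Piezo1KO 2, a difference of 0.84. Here the cytosolic value was higher and the mitochondrial value lower in both Piezo1KO libraries on the deposited scale. Scaled to all assigned reads, the log2 fold changes of Hars and Hars2 were -0.23 and -0.78. Eprs/Pars2 reached 43.8 in Piezo1KO 2, the library with 9 reads of Pars2, against 14.2, 12.4 and 15.99 in WT 1, WT 2 and Piezo1KO 1. The pair nearest to no difference on the deposited values was Farsb/Fars2, at 17.6 in WT 1, 20.8 in WT 2, 24.9 in Piezo1KO 1 and 16.9 in Piezo1KO 2, a difference of 0.10 with Piezo1KO 1 the highest and Piezo1KO 2 the lowest.

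**Figure D3:**
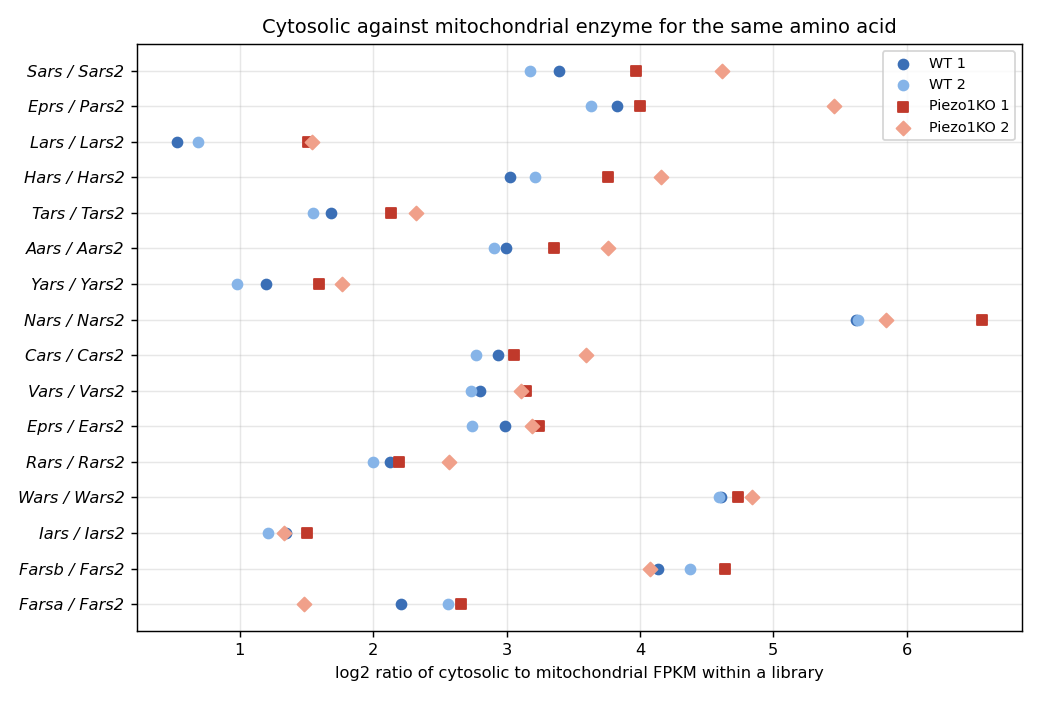
Log2 ratio of the cytosolic to the mitochondrial FPKM for the same amino acid within each library, 1 point per library, ordered by the difference between groups. In 13 of 16 pairs both Piezo1KO points lie to the right of both WT points, a count that is 7 after quantile normalisation. The count was not made for other pairs of genes.

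The size of these differences was read beside the level and length of the genes. Of all genes tested, the quartile with the highest mean FPKM had a median log2 fold change of 0.28, and the quartiles below it -0.004, -0.14 and -0.14. Of the 19 cytosolic enzymes 16 were in the highest quartile and none in the lower 2, while of the 16 mitochondrial enzymes none was in the highest, 5 were in the next and 11 in the lower 2. Median log2 fold changes by gene length were 0.50 in the shortest quartile, then 0.11, -0.11 and -0.30 in the longest. The median length was 4538 bases for the cytosolic and 5603.5 bases for the mitochondrial members, and 3991 bases for all genes tested. With a length trend removed from each library, the cytosolic median was 0.36 with 19 of 19 positive, and the mitochondrial median was -0.13 with 6 of 16 positive. The part of level and of length in the difference between the classes was not tested beyond these values.

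**Figure D4:**
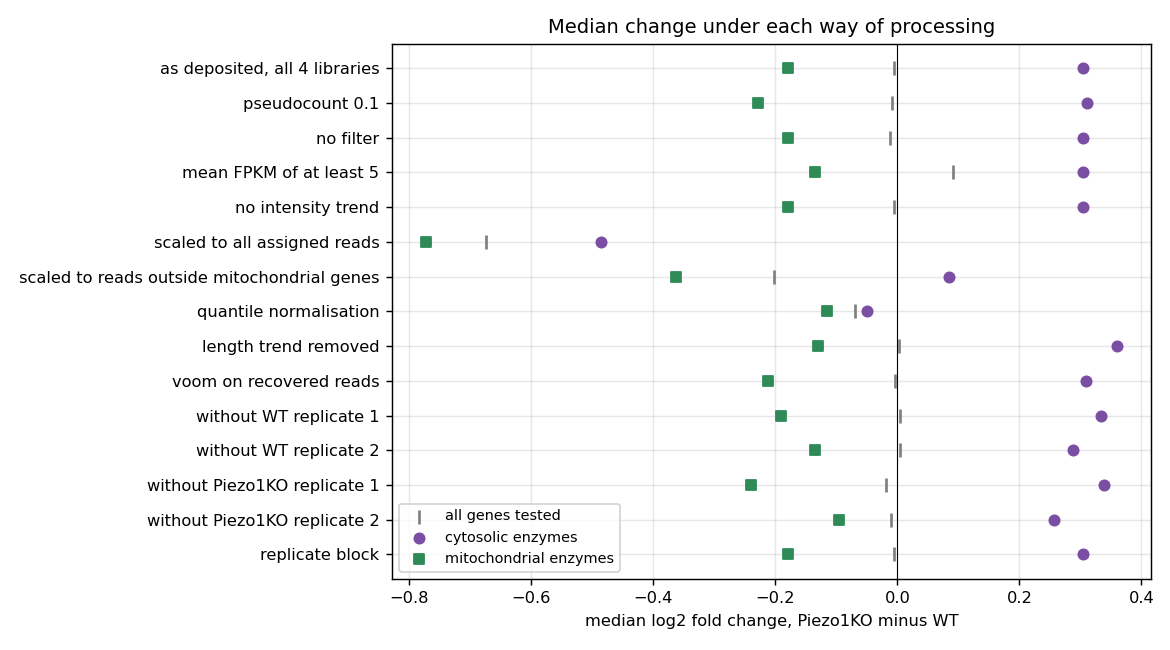
Median log2 fold change, Piezo1KO minus WT, of the cytosolic enzymes, the mitochondrial enzymes and all genes tested, for each way of processing. The cytosolic median exceeds the mitochondrial one in every line, by 0.065 after quantile normalisation up to 0.58 without Piezo1KO 1, but the cytosolic median itself is -0.49 when scaled to all assigned reads and -0.05 after quantile normalisation.

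Single libraries decided the calls. Without Piezo1KO 1, 12 cytosolic members passed as higher, beside 27% of genes, and Iars passed as lower, beside 25.4%. Aars2, Lars2, Mars2, Pars2 and Vars2 passed as lower in that fit. Without Piezo1KO 2, Cars, Gars, Hars, Kars, Qars and Sars passed as higher, beside 12% of genes, and Lars2 as lower, beside 6.59%. All 7 of these also passed, in the same direction, without Piezo1KO 1. Each of these limma fits takes the lone Piezo1KO library to vary like the WT libraries, which lay closer together. The median SD within a group over the cytosolic members was 0.025 in WT and 0.14 in Piezo1KO on the log2 scale, against 0.075 and 0.21 for all genes tested. Without WT 1 the median log2 fold change was 0.33 for the cytosolic and -0.19 for the mitochondrial members. Without WT 2, where 15 mitochondrial members were tested, these medians were 0.29 and -0.14.

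Genes that work beside the synthetases were taken from lists, and none of the members tested passed limma at an adjusted p of 0.05. Their counts of separate groups stand beside 33.9% of all genes higher and 35.6% lower. The median of all genes tested was -0.01 as deposited, -0.67 scaled to all assigned reads and -0.07 after quantile normalisation. The scaffold proteins of the multi-tRNA synthetase complex were separate and higher in 3 of 3, with a median log2 fold change of 0.40 that was -0.33 when scaled to all assigned reads. Aimp1, which holds the complex together and binds tRNA, had 9.54 FPKM in WT 1, 9.86 in WT 2, 14.5 in Piezo1KO 1 and 23.3 in Piezo1KO 2, with a log2 fold change of 0.86 (adjusted p = 0.141) in limma. Eef1e1, a smaller subunit of the complex, had 7.55, 7.42, 8.79 and 11.8 FPKM and 0.40 (adjusted p = 0.206).

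The elongation factors that take charged tRNA to the cytosolic ribosome or move the ribosome along were separate and higher in 5 of 5. Their median of 0.75 was -0.04 when scaled to all assigned reads and -0.15 after quantile normalisation. Eef1g had 226, 235, 363 and 495 FPKM and a log2 fold change of 0.88 (adjusted p = 0.140) in limma, and Eef1d had 29.4, 28.1, 40.6 and 59.4 FPKM and 0.75 (adjusted p = 0.143). Both belong to the complex that exchanges the nucleotide on the factor bringing tRNA. Of 29 tested ATF4 targets other than synthetases, 20 were separate and higher and 5 separate and lower, and the median of 0.55 was -0.22 when scaled to all assigned reads. The higher ones include Atf4 itself, with 132.8, 131.2, 205 and 288 FPKM. Its log2 fold change was 0.88 (adjusted p = 0.137) in limma, and 0.07 when scaled to all assigned reads. Xpot, separate and lower, is counted both here and among the genes of tRNA end processing and export. Atf3, a stress-induced transcription factor, had 13.1, 13.3, 49.7 and 36.1 FPKM and a log2 fold change of 1.61 (adjusted p = 0.0531) in limma, and Ddit3, encoding CHOP, had 19.5, 18.9, 33.3 and 40.8 FPKM and 0.91 (adjusted p = 0.0972).

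Of the genes that correct mischarged tRNA, 4 of 5 were tested, 2 separate and higher and 1 separate and lower, with a median of 0.30 that was -0.40 when scaled to all assigned reads. Ankrd16, a cofactor of the alanyl-tRNA synthetase, had 2.05 FPKM in WT 1, 3.11 in WT 2, 0.389 in Piezo1KO 1 and 0.675 in Piezo1KO 2, the largest difference among these partners in the lower direction, with a log2 fold change of -1.22 (adjusted p = 0.112) in limma. Prorsd1, a homologue of bacterial domains that edit tRNA charged for proline, had 3.46, 2.01, 3.82 and 5.58 FPKM and 0.62 (adjusted p = 0.204).

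On the mitochondrial side, partners of the synthetases had values in both directions on the deposited scale. Of 9 mitochondrial translation factors, 5 were separate and higher and none separate and lower, with a median log2 fold change of 0.17 that was -0.49 when scaled to all assigned reads, beside the -0.18 and -0.77 of the mitochondrial synthetases. Mrrf, which recycles mitochondrial ribosomes, had 3.93, 3.34, 5.03 and 5.96 FPKM and 0.49 (adjusted p = 0.149) in limma, and Tsfm, an elongation factor, had 6.29, 6.60, 7.63 and 11.3 FPKM and 0.47 (adjusted p = 0.208). Mitochondria make their glutaminyl-tRNA from a tRNA charged with glutamate by Ears2, through an amidotransferase that holds Gatb. Ears2 had 2.31 FPKM in WT 1, 2.71 in WT 2, 2.11 in Piezo1KO 1 and 1.86 in Piezo1KO 2, and Gatb had 3.28 FPKM in WT 1, 4.001 in WT 2, 6.39 in Piezo1KO 1 and 6.02 in Piezo1KO 2. Both genes had separate groups, Ears2 lower and Gatb higher in Piezo1KO, with log2 fold changes of -0.23 (adjusted p = 0.349) and 0.64 (adjusted p = 0.124) in limma. Mtfmt, which formylates the initiator tRNA, had 4.32, 4.38, 3.65 and 3.69 FPKM and -0.20 (adjusted p = 0.329). Of the 4 genes of mitochondrial transamidation and formylation, Gatb was separate and higher and Mtfmt separate and lower. The others, Gatc and Qrsl1, overlapped, with log2 fold changes of 0.11 and -0.34. The median of the 4 was -0.04, which was -0.71 when scaled to all assigned reads.

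Of the 22 mitochondrial tRNA genes, whose products the mitochondrial synthetases charge, 17 were tested, and 11 of them were separate and higher and 1 separate and lower. Their median log2 fold change of 2.26 went with the larger share of mitochondrial reads in Piezo1KO. It was 1.65 when all assigned reads set the scale. These genes are short, with a median of 68.5 bases, and whether their reads came from longer mitochondrial transcripts was not tested. The filter used the mean FPKM of all 4 libraries, so mt-Ts1 and mt-Tk, without a read in WT, met it through Piezo1KO alone. In WT 1, WT 2, Piezo1KO 1 and Piezo1KO 2, mt-Ts1, counted as separate and higher, had 0, 0, 9 and 1 reads. mt-Tk had 0, 0, 11 and 0 reads, and mt-Tv, with 4, 1, 0 and 0, missed the filter. The count and the median lean upward through this. mt-Tq had 0, 2.08, 11.5 and 16.9 FPKM and a log2 fold change of 3.09 (adjusted p = 0.104) in limma. Those values rest on only 0, 3, 12 and 9 reads in WT 1, WT 2, Piezo1KO 1 and Piezo1KO 2. mt-Tl2 had 22.9, 6.23, 81.2 and 124 FPKM, from 32, 9, 85 and 66 reads, and 2.95 (adjusted p = 0.118). The 10 genes of tRNA end processing and export were divided, with 4 separate and higher, 4 separate and lower and a median of 0.001. Rpp38, a ribonuclease P subunit, had 3.36, 3.73, 6.05 and 5.51 FPKM and 0.58 (adjusted p = 0.126) in limma, and Trmt10c, a subunit of the mitochondrial ribonuclease P, had 7.87, 7.58, 4.63 and 5.64 FPKM and -0.51 (adjusted p = 0.140).

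**Figure D5:**
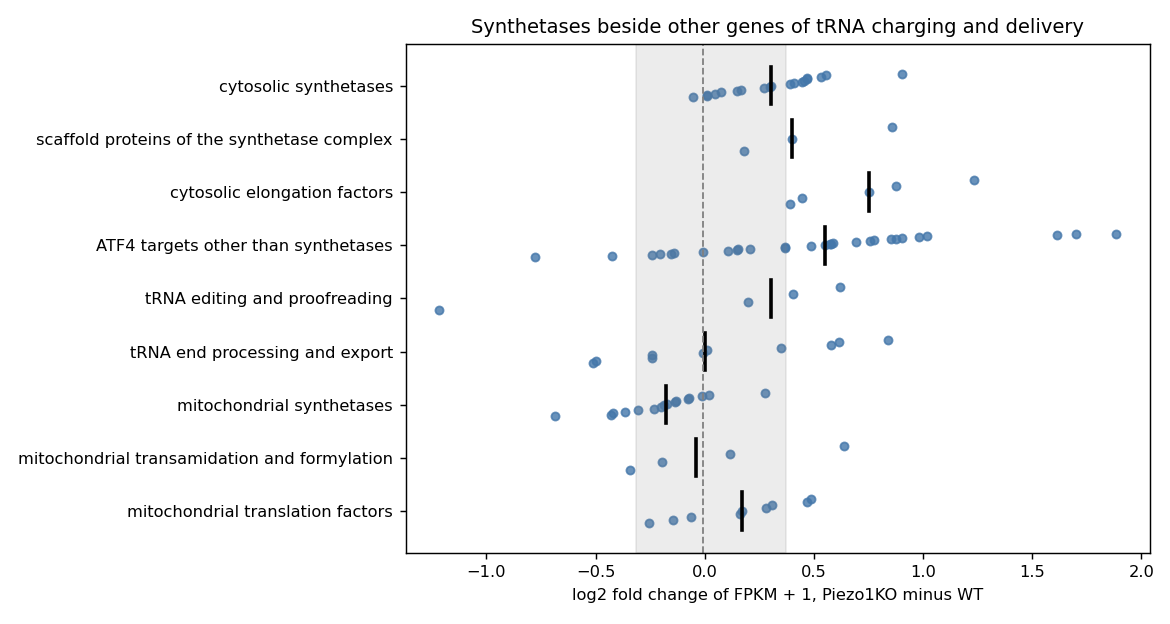
Log2 fold change of FPKM + 1, Piezo1KO minus WT, of the synthetases and of genes that work beside them, on the deposited scale, with 1 point per tested gene and a bar at each list's median. The band spans the middle 50% of all genes tested. Medians run from -0.18 for the mitochondrial synthetases to 0.75 for the cytosolic elongation factors. When scaled to all assigned reads the medians of all 9 lists are below 0, as is that of all genes tested (-0.67). After quantile normalisation the list medians run from -0.15 (cytosolic elongation factors) to 0.37 (scaffold proteins).

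Some members share their sequence or position with another gene, and it is not known whether the counting used strand. Hars and Hars2 lie head to head on chromosome 18 of GRCm38, with 198 bases of overlap between their spans on opposite strands, and without strand reads there cannot be told apart. Iars2 shares 2034 bases with Rab3gap2, and Cars2 shares 984 with Naxd, an expressed gene on the other strand. Fars2 shares 115 bases with Lyrm4, also on the other strand. Lyrm4 had 1.90 FPKM in WT 1, 1.77 in WT 2, 2.54 in Piezo1KO 1 and 5.24 in Piezo1KO 2. Its part in the Fars2 values was not tested. Iars matches the processed pseudogene Gm4849 over 1656 bases at 96.0% identity, and Aars holds 1326 bases identical to Exosc6. In all, 18 of the 35 members overlap the span of another annotated gene. Lengths were given without a definition, from 1987 bases for Hars to 18102 bases for Eprs. If they are sums of annotated exons, a member with many rarely used exons is listed lower per length than its main transcript would be.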

How the data were processed

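RNA sequencing of 4 libraries (2 WT and 2 Piezo1KO) was used as 1 table of FPKM values per gene, deposited by the authors with gene lengths. The submitters' processing notes name fastp 0.19.7, featureCounts 1.5.0-p3 and the build mm10 (GRCm38). Not given in the sources used here were aligner, annotation release, strand setting and FPKM formula. FPKM times length was a whole number of steps for 100% of values (tolerance 0.05 reads), which gave 13789266 to 15892797 assigned reads per library. The library size behind the FPKM divided by the assigned reads was 1.26 for WT 1, 1.28 for WT 2, 0.962 for Piezo1KO 1 and 0.544 for Piezo1KO 2, so the deposited scale is not that of the assigned reads.

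Values were tested as log2(FPKM + 1), filtered at a mean FPKM of 1, with limma 3.58.1 in R 4.3.3 (intensity trend, two-sided, 2 residual and 2.59 prior degrees of freedom). Fold changes on this scale understate those of low genes. The script was tested on simulated data. Groups and sample numbers follow the sample titles, and the descriptions number the WT libraries 2 and 3. Alternatives were another pseudocount, other filters, no trend, 3 other scalings, removal of a length trend, voom on recovered reads (82 genes called), each library left out, and the sample number as a block. Members and lists were chosen with earlier results of these data known. Named in full were the cytosolic (5) and mitochondrial (4) members with the smallest p, the highest and lowest member of each class and the most and least different pair, then 2 genes of each other list. Kars, Lars, Hars/Hars2, Eprs/Pars2, Ears2 and the members near a call were added after their values were seen. The symbol Ddit3 had 2 entries, of which the longer was used. Some of the matching windows are not reported here.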

Additional observations from a re-analysis of the deposited data

How the results depend on the processing

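No synthetase reversed direction past the test. Of the 35 members, 0 passed under a pseudocount of 0.1, no filter, no trend, quantile normalisation or the length trend removed. The same count held for voom and for scaling to reads outside mitochondrial genes. At a mean FPKM of at least 5, 19 cytosolic and 7 mitochondrial members were tested, and 0 passed. With 122 genes called on the deposited scale, 1 was called without a filter, 68 at a mean FPKM of at least 5, 192 after quantile normalisation and 36 with the length trend removed. Scaled to all assigned reads, 1718 were called, of which 14.7% were higher against 66.4% on the deposited scale, and the median of all genes was -0.67. There 1 mitochondrial member, Lars2, passed as lower, beside 1466 of 11083 genes. In that setting the cytosolic median was -0.49, the mitochondrial median -0.77 and their difference 0.29 against 0.48. Scaled to reads outside mitochondrial genes, 56.1% of calls were higher and the class medians were 0.085 and -0.36. After quantile normalisation they were -0.0503 and -0.12, with a difference of 0.065. The mitochondrial median was -0.23 with a pseudocount of 0.1, -0.14 at a mean FPKM of at least 5 (7 members left) and -0.13 with the length trend removed. Leaving out 1 library gave 0 (without WT 1 or WT 2, where 704 and 582 had an unadjusted limma p under 0.05) to 5789 (without Piezo1KO 1) genes called, 0 to 13 cytosolic and 0 to 5 mitochondrial members called, and a mitochondrial median of -0.24 to -0.10. With the sample number as a replicate block, 264 genes and 0 members were called; numbers of the 2 groups share only a number (correlation of deviations -0.03 over 11085 genes). Beyond the smaller sets tested or fitted, the cause of these shifts was not tested. Depth limits the precision of the low mitochondrial members, such as Pars2 with 9 reads in Piezo1KO 2.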
